A study of Mus musculus with 2 samples.

Results

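The genes described here encode the aminoacyl-tRNA synthetases, 20 for enzymes of the cytosol and 16 for enzymes of the mitochondrion, the latter with symbols that end in 2. They were chosen by name. All 36 symbols were found among the gene names of the non-control spots, out of 31829 distinct names on the array, and were read by 45 probes. RNA came from the parental Ba/F3 cells (clone id control), a mouse pro-B cell line, and from Ba/F3 (#BEB1), a derived clone that binds the peptide Ecrg4. Both were grown in medium with interleukin-3. The variant is 1 clone, sorted repeatedly after infection with a retroviral expression library made from CG4 cells, a rat oligodendrocyte precursor line. There was 1 Agilent one-colour whole mouse genome array per cell line, so the differences are without replicates and nothing was tested for significance.

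Each synthetase joins 1 amino acid to its matching tRNAs, the step that supplies the ribosome with charged tRNA. The mitochondrion has a ribosome of its own, and most of its synthetases come from separate nuclear genes, whereas Gars and Kars each encode both forms of their enzyme. In the cytosol some of the enzymes are held in a multi-synthetase complex on scaffold proteins. Transcription of many cytosolic synthetase genes is known to be raised by the stress factor ATF4 when amino acids run short.

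The arrays are called array A and array B because their assignment is not settled. Array A is Ba/F3 (#BEB1) in the authors' table of normalised values and the parental cells in the scanner output, and array B is the reverse. Over 39429 probes, the table's Ba/F3 (#BEB1) column correlated at r = 0.999996 with the scanner output filed under the parental cells, and at r = 0.982286 with that filed under Ba/F3 (#BEB1). Differences are log2 values of array A minus array B, after division of each array by its 75th percentile of signal (1506 on array A, 1080 on array B). A positive value is therefore higher in Ba/F3 (#BEB1) by the authors' table and higher in the parental cells by the scanner output. Olr1, the gene of LOX-1, the Ecrg4-binding receptor that was cloned from an expression library of Ba/F3 (#BEB1), was at 3.11 on array A and -1.90 on array B (5.01). Wording in the study gives the higher LOX-1 level to Ba/F3 (#BEB1), as its table does. That wording comes from these same arrays, and the assignment is left as unsettled. A gene was measured where at least 1 probe was well above background on both arrays, which held for 49.4% of the probes of array A and 49.9% of those of array B taken singly. No spot was saturated.

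The error available is that of the arrays alone. Over 211 probes printed at 10 spots each and well above background at every one, the log2 signal varied with a median SD of 0.06 (array A) and 0.05 (array B), or 0.08 for a difference. The scanner's own error estimate, carried to the difference of a single member probe, was larger, with a median of 0.20 and a range of 0.20 to 0.33. It is the error given below. Neither covers the spread between cultures. Genes at least 1.5-fold apart (0.58 on the log2 scale) are counted, which is a size and not a test. In all, 14832 genes were measured, with a median difference of -0.02. Of these, 12.5% were past 1.5-fold towards array A and 17.6% towards array B. Past 2-fold the shares were 3.84% and 7.31%.

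As to the labelled cell type, the B-lineage markers Cd79b, Vpreb1 and Vpreb3 were measured on both arrays, whereas Pax5 and Ebf1, transcription factors of the lineage, were not well above background on array A or array B. The interleukin-3 receptor genes Il3ra, Csf2rb and Csf2rb2 were measured, with differences from -1.86 to 0.40. Markers of other blood cells mostly lay towards array B. The measured neutrophil markers (5 of 7) ranged from -5.90 to 0.10, the erythroid ones (3 of 5) from -3.20 to -1.16 and the macrophage ones (4 of 5) from -1.26 to 0.90, and the mast cell protease Cpa3 (1 of 5) was at -5.44. In such bulk RNA, fewer cells of a type and less RNA per cell cannot be told apart. The part of these markers in the synthetase values was not tested.

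The cytosolic enzymes were mostly higher on array A and the mitochondrial ones were divided. All 20 cytosolic genes were measured, with a median difference of 0.41. Of these, 16 were above 0, 8 (40%) were past 1.5-fold towards array A and 1 (5%) towards array B. Of the 16 mitochondrial genes, 15 were measured, with a median of -0.04, which took the other sign when arrays were scaled to their medians (0.25), by quantiles (0.02) or read by the brightest probe (0.20). Of the 15, 7 were above 0, 4 (26.7%) were past 1.5-fold towards array A and 2 (13.3%) towards array B. Over all measured genes these shares were 12.5% and 17.6%. The cytosolic median lay 0.46 above the mitochondrial one, a distance that dividing an array by another constant cannot alter. With arrays scaled to their medians, which moved all genes by 0.29, the cytosolic counts became 13 and 0, and 27.8% of all genes were past 1.5-fold towards array A. At 2-fold, 3 cytosolic genes and 0 mitochondrial genes lay towards array A, and 0 of the 35 towards array B, against 3.84% and 7.31% of all genes.

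**Figure D1:**
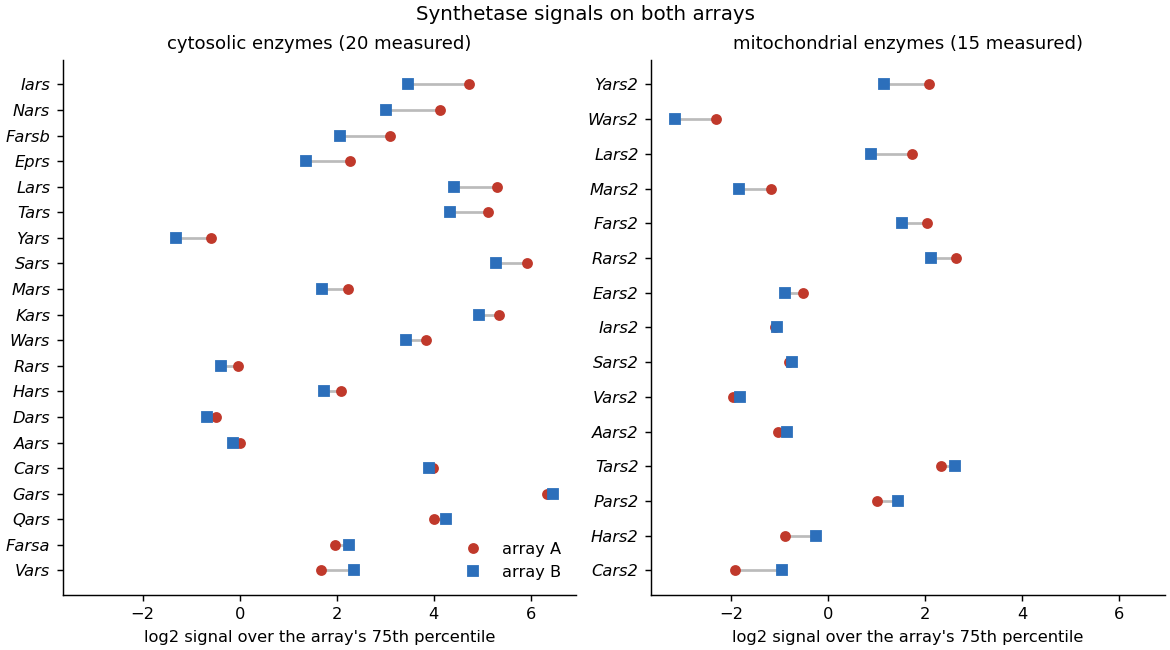
Horizontal axis, log2 of signal divided by the 75th percentile of each array, for the 20 cytosolic and 15 mitochondrial synthetase genes measured, in order of their difference, with array A as red circles and array B as blue squares. Each gene is to be read against itself, since probes differ in brightness. Iars has the widest gap towards array A (4.73 against 3.46) and Cars2 towards array B (-0.94 against -1.92).

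The 3 genes past 2-fold were Iars, Nars and Farsb. Iars, the isoleucine enzyme, had a log2 signal of 4.73 on array A and 3.46 on array B, a 2.41-fold gap (1.27 ± 0.20, scanner error). Its probe lies at chr13:49829328-49829387 on the plus strand of mm9. Nars, the asparagine enzyme, was at 4.12 on array A and 3.02 on array B (2.13-fold, 1.09 ± 0.20). Farsb, the beta subunit of the phenylalanine enzyme, was at 3.09 on array A and 2.07 on array B (2.02-fold, 1.01 ± 0.20). Each of these gaps was wider than the scanner error, and each rests on 1 probe. Where a member had several measured probes, the median range between them was 0.33, and the widest was 1.07 (Aars).

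The other 5 cytosolic genes past 1.5-fold towards array A were Eprs, Lars, Tars, Yars and Sars. Eprs encodes a fused enzyme that charges both the glutamate and the proline tRNA and was at 2.27 on array A and 1.36 on array B (0.92 ± 0.20). Lars, the leucine enzyme, was at 5.30 and 4.41 (0.89 ± 0.20), and Tars, the threonine enzyme, at 5.12 and 4.33 (0.79 ± 0.20). Yars, the tyrosine enzyme, was at -0.60 on array A and -1.31 on array B (0.71 ± 0.20). Sars, the serine enzyme, was the nearest to the limit, at 5.91 and 5.27 (0.64 ± 0.20), and fell short of it (0.56) with the 75th percentile taken over probes well above background on each array. Mars, the methionine enzyme, lay just short of it at 0.54 ± 0.20.

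Vars, the valine enzyme, stood apart from the other cytosolic genes. It was at 1.68 on array A and 2.36 on array B, 1.59-fold higher on array B (-0.67 ± 0.20), and short of 1.5-fold when arrays were scaled to their medians (-0.38). The remaining cytosolic genes lay between these sizes. Kars (0.42), Wars (0.40), Rars (0.36), Hars (0.35), Dars (0.19), Aars (0.13) and Cars (0.10) were on the side of array A, and Gars (-0.12), Qars (-0.25) and Farsa (-0.30) on that of array B. Of these, Dars, Aars, Cars and Gars differed by less than the scanner error of their value. With arrays scaled to their medians, Gars (0.18) and Qars (0.04) took the other sign.

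**Figure D2:**
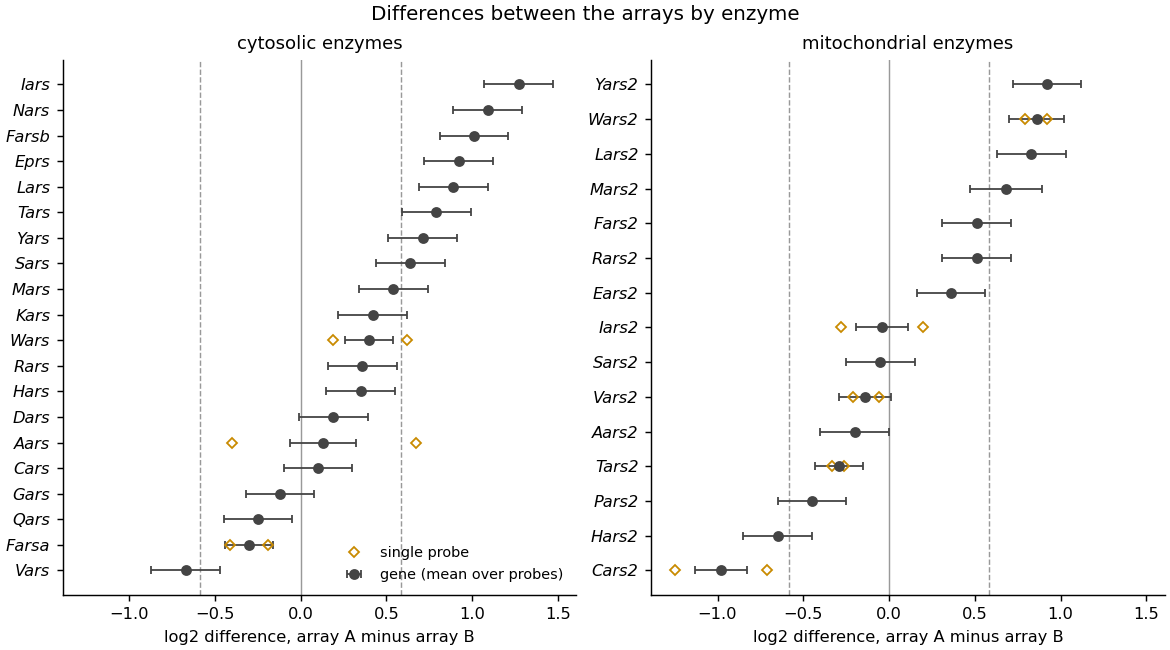
Difference in log2 signal (A minus B) for each measured synthetase gene (black circles, mean over its probes) with the scanner's error estimate as bars, and single probes as open diamonds where a gene has several. Dashed lines mark 1.5-fold. Of the cytosolic genes 8 lie past the right line and Vars past the left, and the probes of Aars lie apart at -0.40 and 0.67.

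The subunits of 1 enzyme differed. Phenylalanyl-tRNA synthetase of the cytosol is built from the alpha subunit Farsa and the beta subunit Farsb. Farsb was 2.02-fold higher on array A, whereas Farsa was 1.23-fold higher on array B by the mean of its 2 probes (-0.41 and -0.19, mean -0.30 ± 0.14). The gap between the subunits was thus wider than the errors of either value. The probes below are shown because this contrast rests on them. Each spans more of the genome than its 60 bases and so crosses at least 1 exon junction of the spliced mRNA. The Farsa probe (-0.41) lies at chr8:87391534-87391694 on the plus strand of mm9, and the Farsb probe (1.01) at chr1:78440318-78451340 on the minus strand.
Farsa: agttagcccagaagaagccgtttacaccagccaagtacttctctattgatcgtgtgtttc
Farsb: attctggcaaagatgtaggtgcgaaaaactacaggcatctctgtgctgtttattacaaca

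Probes of a gene also disagreed in places. Of the 8 members with several measured probes, the median range between probes was 0.33. The widest range was that of Aars, the alanine enzyme. Of its probes 1 was at 5.04 on array A and 4.38 on array B, a difference of 0.67, whereas the other was well above background but weak, with signals of 45.7 and 43.3 before scaling. It differed by -0.40. Wars, the tryptophan enzyme, had probes at 0.62 and 0.19. By the brightest probe alone, both genes were past 1.5-fold, and the cytosolic count became 10.

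The 8 enzymes of the multi-synthetase complex (Eprs, Iars, Lars, Mars, Qars, Rars, Kars and Dars) had a median of 0.48, and the 12 cytosolic genes outside it 0.37. In the complex 3 of 8 were past 1.5-fold towards array A and 0 towards array B, and outside it these counts were 5 and 1 of 12. The shares over all measured genes were 12.5% and 17.6%. The scaffold genes Aimp1 and Aimp2 of the complex were at 0.39 and 0.30. The third scaffold gene, Eef1e1, had a wider gap than any synthetase gene, with 3.60 on array A and 2.07 on array B (1.53). Of the 11 components with the scaffolds, 10 lay above 0, the exception being Qars, the glutamine enzyme. Xpot, which carries tRNA out of the nucleus, was at 0.77. Of the 11 scaffold and charging partners listed, 2 lay past 1.5-fold towards array A (Eef1e1 and Xpot) and 0 towards array B, with a median of 0.13.

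Among the mitochondrial enzymes, the 4 past 1.5-fold towards array A were Yars2, Wars2, Lars2 and Mars2. Yars2, the tyrosine enzyme, was at 2.08 on array A and 1.16 on array B (1.89-fold, 0.92 ± 0.20). Wars2, the tryptophan enzyme, was at -2.30 and -3.16 (0.86 ± 0.16), and its probes were at 0.92 and 0.79. Lars2, the leucine enzyme, was at 1.72 and 0.89 (0.83 ± 0.20), and Mars2, the methionine enzyme, at -1.17 and -1.84 (0.68 ± 0.21). With normexp background correction, Wars2 (0.51) and Mars2 (0.54) fell short of 1.5-fold. Those 4 were thus on the same side as most of the cytosolic genes.

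Cars2 and Hars2 were on the other side. Cars2, the cysteine enzyme of the mitochondrion, was at -1.92 on array A and -0.94 on array B, 1.98-fold higher on array B (-0.98 ± 0.15), and its probes were at -1.25 and -0.71. Hars2, the histidine enzyme, was at -0.89 and -0.24 (1.57-fold, -0.65 ± 0.20), and fell short when arrays were scaled to their medians (-0.36). Between these sizes lay Fars2 (0.51), Rars2 (0.51), Ears2 (0.36), Iars2 (-0.04), Sars2 (-0.05), Vars2 (-0.14), Aars2 (-0.20), Tars2 (-0.29) and Pars2 (-0.45). Iars2, Sars2, Vars2 and Aars2 differed by no more than the scanner error, and with arrays scaled to their medians they lay between 0.09 and 0.25, above 0. The single Nars2 probe was below the background limit on array A and on array B alike. A further Pars2 probe was well above background on array B alone, and with it Pars2 was past 1.5-fold towards array B (-0.71).

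Synthetases fall into class I and class II, unrelated folds of the catalytic domain. In the cytosol the classes had like medians, 0.40 over 9 genes of class I and 0.39 over 10 of class II, with Eprs, which holds 1 domain of each, left out. In the mitochondrion they lay further apart, at 0.51 over 9 genes of class I and -0.25 over 6 of class II, of which the latter took the value 0.05 with arrays scaled to their medians. The 4 mitochondrial genes past 1.5-fold towards array A were all of class I, as was Cars2, and 1 of the 6 class II genes, Fars2, lay above 0. With 1 array per cell line this difference between classes was not tested.

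Set side by side by amino acid, 16 pairs of a cytosolic and a mitochondrial gene were measured, in which Eprs and Fars2 each occur in 2 pairs. The cytosolic difference was the higher in 10 and the mitochondrial in 6, with a median gap of 0.42. The gap was at least 1.5-fold in favour of the cytosolic gene in 6 pairs. The widest were Eprs over Pars2 (1.36), Iars over Iars2 (1.31), Tars over Tars2 (1.09) and Cars over Cars2 (1.08), followed by Hars over Hars2 (0.99) and Sars over Sars2 (0.69). It was at least 1.5-fold the other way in 1 pair, Farsa and Fars2 (-0.81). For leucine (0.05), methionine (-0.13), arginine (-0.15) and tyrosine (-0.21) the enzymes of both compartments were on the side of array A and differed little from each other. Within a pair, scaling by a constant cancels.

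**Figure D3:**
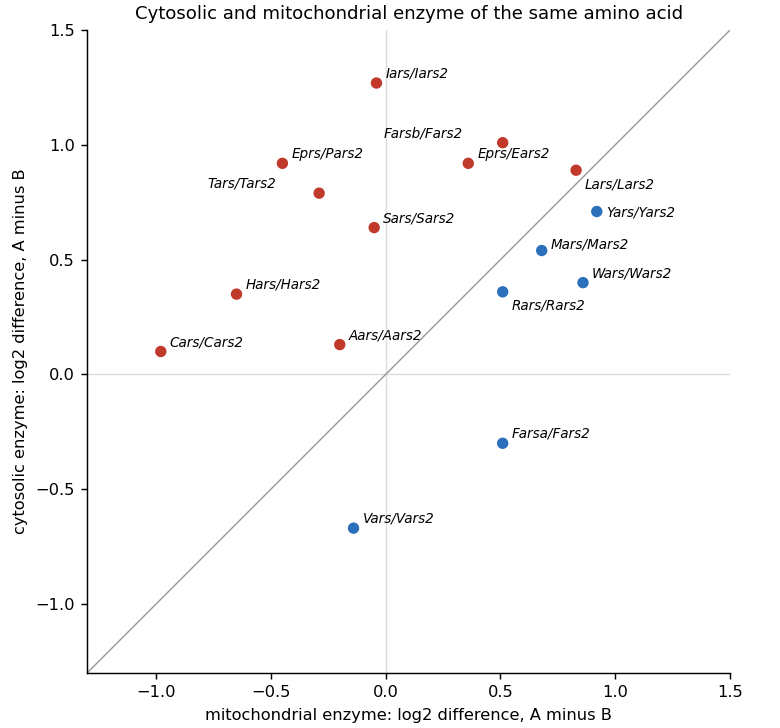
Log2 difference (A minus B) of the cytosolic gene (vertical axis) against that of the mitochondrial gene for the same amino acid (horizontal axis) in 16 pairs, with the line of equality. Red points (10) have the higher value for the cytosolic gene and blue points (6) for the mitochondrial one. Iars/Iars2 is at 1.27 and -0.04 and Farsa/Fars2 at -0.30 and 0.51.

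More of the cytosolic genes had strong signal, so the values were set beside all genes of like signal. All measured genes were ranked by mean log2 signal into 4 equal bins of 3708 genes. In the bin of strongest signal all genes had a median difference of 0.08, with 11.1% past 1.5-fold towards array A. It held 11 cytosolic genes, with a median of 0.64 and 6 past 1.5-fold in that direction, and 2 mitochondrial ones, with a median of 0.11. In the next bin, where all genes had a median of 0.04, 5 cytosolic genes had a median of 0.35 and 4 mitochondrial ones of 0.67. In the bin below, where it was -0.06, these were 0.28 over 4 genes and -0.09 over 8. The weakest bin (-0.18) held no cytosolic gene and 1 mitochondrial gene, Wars2. The cytosolic median was thus not above the mitochondrial one in each bin. The part of signal strength in the difference between the compartments was not tested.

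Promoter sequence was at hand for 27 of the 36 members, from RefSeq (GRCm38.p6), as windows of 250 bases before the transcription start and 50 from it on. The letters TGATGCAA, core of the element through which ATF4 and C/EBP factors act on amino acid response genes, and the looser TGATGNAA, which includes them, were searched on both strands. Of 32851 windows of this length, 0.895% held TGATGCAA and 3.97% TGATGNAA. Of the 13 cytosolic genes with a window, TGATGCAA was found in 4 (Aars, Iars, Tars and Yars) and TGATGNAA in 5, with Gars, whereas in the 14 mitochondrial genes with a window it was found in 0 of 15 windows. Of the amino acid response genes listed, 8 of 29 held TGATGNAA. A match is a run of letters and not a site shown to be bound.

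The windows of the 5 genes are shown from 120 bases before the start to 20 bases from it on, 5′ to 3′ on the strand of the gene, with matches on either strand in capitals, since the genes share these letters but not the size of their difference. They lie at chr8:111033722-111033861 (Aars, plus strand), chr6:55037881-55038020 (Gars, plus), chr13:49682010-49682149 (Iars, plus), chr15:11399639-11399778 (Tars, minus) and chr4:129189783-129189922 (Yars, plus).
Aars: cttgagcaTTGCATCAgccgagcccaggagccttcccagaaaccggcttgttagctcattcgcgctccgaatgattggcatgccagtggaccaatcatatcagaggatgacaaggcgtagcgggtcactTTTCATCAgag
Gars: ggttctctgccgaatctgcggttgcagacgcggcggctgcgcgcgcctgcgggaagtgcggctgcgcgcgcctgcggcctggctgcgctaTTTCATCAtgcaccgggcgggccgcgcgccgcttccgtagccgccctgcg
Iars: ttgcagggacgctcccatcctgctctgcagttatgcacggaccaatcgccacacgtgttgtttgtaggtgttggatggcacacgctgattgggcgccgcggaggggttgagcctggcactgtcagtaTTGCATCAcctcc
Tars: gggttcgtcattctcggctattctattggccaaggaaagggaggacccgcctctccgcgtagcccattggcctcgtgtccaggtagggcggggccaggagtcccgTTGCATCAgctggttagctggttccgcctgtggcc
Yars: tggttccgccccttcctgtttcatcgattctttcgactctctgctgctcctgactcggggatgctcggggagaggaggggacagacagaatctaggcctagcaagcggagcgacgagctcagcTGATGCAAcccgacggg

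The matches sat close to the start. That of Iars lay at bases 8 to 15 and that of Yars at bases 4 to 11, counted from 1 at the start. That of Tars lay at -15 to -8, that of Gars at -30 to -23, and Aars had matches at -112 to -105 and at 10 to 17. Of the 5 genes with a match, 3 were past 1.5-fold towards array A (Iars 1.27, Tars 0.79 and Yars 0.71), while Aars was at 0.13 and Gars at -0.12. The Aars value is the mean of a bright probe at 0.67, itself past 1.5-fold, and a weak one at -0.40. Of the 8 cytosolic genes with a window and no match, 3 were past 1.5-fold towards array A (Farsb, Eprs and Sars). The share was 40% over all cytosolic genes and 12.5% over all measured genes. The medians of the groups with and without a match were 0.71 and 0.48. With so few genes the difference between these groups was not tested. The 7 cytosolic genes without a window (Cars, Hars, Lars, Nars, Rars, Vars and Wars) are in neither group. Of these, Nars (1.09) and Lars (0.89) were past 1.5-fold towards array A and Vars (-0.67) towards array B.

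**Figure D4:**
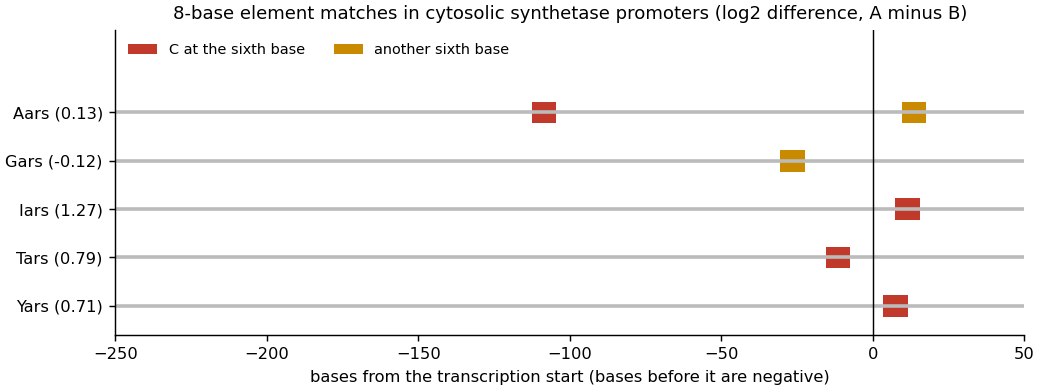
Place of the 8-base matches in the promoter windows of 5 cytosolic synthetase genes, in bases from the transcription start, with each gene's log2 difference (A minus B) in brackets. Red boxes have C at the sixth base and ochre boxes another base. The boxes lie between -30 and 17, apart from that of Aars at -112.

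Most of the amino acid response genes lay towards array A. Of 32 listed, 29 were measured, with a median of 0.43, 23 above 0 and 6 below. Past 1.5-fold were 12 (41.4%) towards array A and 1 (3.45%) towards array B, against 12.5% and 17.6% of all measured genes. Atf4 itself was at 0.31. The genes past 2-fold were Nupr1, a stress-induced chromatin protein (2.16), Cth, which makes cysteine from cystathionine (1.72), Ddit3, the stress factor CHOP (1.66), and Ppp1r15a, which directs the dephosphorylation of eIF2α (1.53). Psph, the last enzyme of serine synthesis, was past it on array B (-1.29). A similar list of stress genes was already known to lie towards array A in these data, so this is no independent support.

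The rest of the translation machinery had smaller medians than the cytosolic synthetases (0.41), though above that of the mitochondrial ones (-0.04). The 81 measured cytosolic ribosomal protein genes had a median of 0.03, with Rpl3l, a muscle paralogue of Rpl3, at 1.08 and Rps24 at -0.71 as the genes past 1.5-fold. The 8 cytosolic elongation and release factors had a median of 0.11, with the release factor gene Etf1 (0.75) past it. The 74 measured mitochondrial ribosomal protein genes had a median of 0.30, above that of the mitochondrial synthetases. Among them 16 (21.6%) were past 1.5-fold towards array A and 1 (1.35%) towards array B, against 12.5% and 17.6% of all genes. Mrps31 (1.34), Mrpl32 (1.28), Mrps6 (1.26) and Mrps10 (1.07) were past 2-fold, and Mrps25 (-0.69) was the gene towards array B. The 15 mitochondrial charging and translation factors had a median of 0.14, with Mtrf1 (0.95), Gfm2 (0.60) and Mtif3 (-0.97) past 1.5-fold. Among them, the genes that make glutaminyl-tRNA in the mitochondrion by amidation, Gatb (0.22), Gatc (0.20) and Qrsl1 (-0.24), and Mtfmt, which formylates the initiator methionyl-tRNA (-0.36), were all less than 1.5-fold apart.

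**Figure D5:**
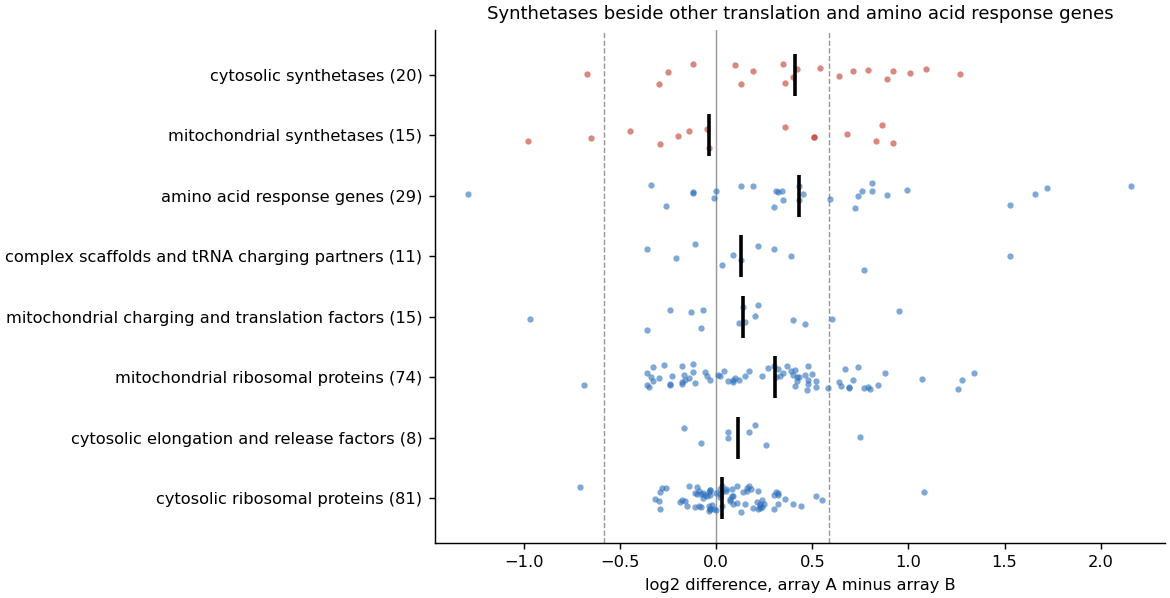
Log2 difference (A minus B) of the measured genes of each list (points, red for synthetases; number of genes in brackets), with the median as a black bar and 1.5-fold as dashed lines. The median is 0.41 for cytosolic synthetases and 0.43 for amino acid response genes, against 0.03 for cytosolic ribosomal proteins and -0.04 for mitochondrial synthetases.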

How the data were processed

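Total RNA of the parental Ba/F3 cells and of Ba/F3 (#BEB1) was amplified from 200 ng, labelled with Cy3 and read on 1 array of a shared Agilent slide per cell line. The authors deposited the scanner output, in which spot intensity was quantified with Agilent Feature Extraction 9.5.1.1 (version per the labels), after background subtraction, spatial detrending and replacement of spots not above background by surrogate values. A table of log2 values was deposited too, for which the authors set signals below 1.0 to 1.0 and scaled each array to its 75th percentile in GeneSpring GX. Its columns have medians of -5.45 (array A) and -5.21 (array B) and are not centred per gene, and which cell line each holds was not settled here.

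Here the 43020 non-control spots were taken through the same steps. No signal was below the floor (lowest 4.51). Spots of a probe, then the probes of a gene well above background on both arrays, were averaged by the gene name in the scanner output. Older symbols of list genes were matched through the RefSeq table of GRCm38.p6, used for names and promoters. Probe coordinates are those of the scanner output, in mm9.

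The members, lists, motifs and thresholds were chosen with earlier results of these data known. All members are named, and list genes at least 2-fold apart or acting directly with the enzymes. Xpot, Etf1, Rps24, Mrps25, Mtrf1, Gfm2 and Mtif3 were named after their values were seen, to spell out small counts. On simulated arrays with genes set 2-fold or more apart, the same steps placed 98 of 99 such measured genes past 1.5-fold with the right sign, and 87 of 16139 genes without a set difference. Besides added background, the simulated spots varied with an SD of 0.06, near that of repeat spots. No spread between cultures or probes and no set difference under 2-fold was simulated. The counts thus check the steps and are not an error rate for the real arrays. The alternatives covered scaling, background correction, floor, filter on dim probes, summary over probes, outlier spots, the authors' table, naming, the shared genes Gars and Kars, and the threshold. Python 3.11.15, numpy 2.4.6, pandas 2.3.3 and matplotlib 3.10.9 were used. Normexp was run in limma 3.58.1 (R 4.3.3).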

Additional observations from a re-analysis of the deposited data

How the results depend on the processing

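With 1 array per cell line, precision is limited by the number of arrays, and all values describe these 2 arrays. With each array scaled to its median, a shift of the median of all genes by 0.29 towards array A, the cytosolic median was 0.70 and the mitochondrial 0.25, and the counts past 1.5-fold towards arrays A and B were 13 and 0 of 20 cytosolic and 7 and 1 of 15 mitochondrial genes, against 27.8% and 9.51% of all genes. The medians were 0.33 and -0.13 with the 75th percentile taken over the probes well above background on array A and array B, and 0.58 and 0.20 with the brightest probe of each gene. The distance between the medians was 0.35 with quantile normalisation and 0.38 with the brightest probe, and it lay above 0 under all settings run. With normexp, 2 mitochondrial genes were past 1.5-fold towards array A, and Mars2 (0.54) and Wars2 (0.51) fell short. With no filter on dim probes, 4 of 16 mitochondrial genes were past it towards array B. At 2-fold the counts on arrays A and B were 3 and 0 for cytosolic and 0 and 0 for mitochondrial genes. The cause was not tested. Under the other settings the group medians and their distance moved by less than 0.08, and the counts by at most 1.5 times. Of 420 values of single genes, 95 moved by at least 0.08 over all settings. Pars2 passed 1.5-fold towards array B (-0.71) with a looser filter or none, and by the brightest probe Cars2 was at -0.71 and Iars2 at 0.20. Of the 15 genes at least 1.5-fold apart, 10 were so under all 12 settings recomputed per gene, and 0 changed sign. These settings, and the 420 values, include some that could not move a member. They are the raised floor, the median over probes and the removal of outlier spots. No member signal lay below that floor, no member had more than 2 probes and no member spot was marked as an outlier. The genes Gars, Qars, Aars2, Iars2, Sars2, Tars2 and Vars2, which were less than 1.5-fold apart, took the other sign or 0 under at least 1 setting. No paired analysis was possible because each cell line has 1 array.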
